A study of Rattus norvegicus with 96 samples.

Results

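The ventral tegmental area (VTA) is the midbrain nucleus whose dopamine neurons project to the accumbens, prefrontal cortex and amygdala. Its profile in alcohol naive rats was compared with 7 forebrain regions of naive rats. The members were chosen by their labels and not by any measured value: 4 naive VTA arrays against 28 naive arrays, 4 from each of the nucleus accumbens core (NAcC) and shell (NAcSh), medial prefrontal cortex (mPFC), central (CeA) and basolateral (BLA) amygdala, and dorsolateral (dlBNST) and ventral (vBNST) bed nucleus of the stria terminalis. These 32 arrays come from a series of 96, which also holds 4 arrays per region from each of a pair of alcohol groups. All were adult male Wistar rats, and 4 rats per group gave all 8 regions, so that arrays of different regions share animals. The naive rats received no alcohol and were matched for age, nondependent rats pressed for 10% alcohol over 4 weeks, and dependent rats were in addition given 4 weeks of intermittent ethanol vapor; the alcohol groups were killed 3 weeks into abstinence. Total RNA from microdissected tissue was amplified and hybridised to an Affymetrix rat expression array, on which 14218 named genes were read.

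Dopamine neurons make dopamine from tyrosine through tyrosine hydroxylase and aromatic amino acid decarboxylase, load it into vesicles through the vesicular monoamine transporter and take it back up through the dopamine transporter. The VTA also holds glutamate and GABA neurons, and axons of many tracts cross or border it. Forebrain neurons arise from the telencephalon under other transcription factors than midbrain neurons. The striatum and the extended amygdala are built mainly of GABA projection neurons, the cortex and BLA mainly of glutamate projection neurons. A microdissected sample mixes all of these with glia, and in such bulk samples fewer cells of a type and less RNA per cell cannot be told apart.

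All values are log2 GCRMA values, so that a difference of 1 is a 2-fold difference. The medians of the 32 naive arrays lay between 3.81 and 3.91, and a value of 2 to 4 is thus near or under the middle of the array. No naive array stood apart: each correlated at 0.989 or more with another array. The mPFC arrays had a Gapdh 3' control of 13.31 to 13.59 against 9.73 to 11.71 in the other 6 forebrain regions and 10.88 to 11.09 in the VTA. Hybridization controls of the VTA (9.19 to 9.49) lay within the forebrain range (8.02 to 10.17). Either 30 or 50 ng of RNA was amplified depending on the region, and which region received which amount is not given in the sources used here, so input and region cannot be told apart. The part of RNA input, or of the mPFC control level, in the differences was not tested. Adjusted p-values come from the limma fit and were adjusted by Benjamini-Hochberg across the 14218 genes.

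The VTA differed widely from the forebrain. Against the unweighted mean of the 7 region means, 4438 genes were higher in the VTA (31.2% of the genes tested) and 3191 lower (22.4%) at an adjusted p under 0.05. With a difference of at least 2-fold, 806 were higher (5.67%) and 647 lower (4.55%). These counts use the spread of arrays within regions. They were 1962 and 854 when each region mean was taken as 1 sample against the 4 VTA arrays, and the share of calls that were higher went from 58.2% to 69.7%. Of 156 genes chosen by rule for description, 41 lost their call in that fit, among them Slc17a7, Gad1, Gad2, Slc32a1, Vip, Scn4b, Chrna5, Agt, Gfap, Nr3c1 and Nr3c2, which are described below beside region means.

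A stricter rule asked for a call in 1 direction against each of the 7 regions singly. By it 1062 genes were higher in the VTA than in every other region (7.47%) and 494 were lower (3.47%), and for 671 and 366 of them all 4 VTA arrays lay beyond all 28 others. Under the same rule the mPFC had 2640 and 2353 genes, the NAcC 190 and 137, the vBNST 150 and 34, and the other 4 regions 91 or fewer in either direction. Only the mPFC had more such genes than the VTA. With the mPFC left out, the VTA counts were 1267 and 741.

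Of the 7 regions the vBNST was nearest to the VTA and the mPFC farthest. Against the vBNST 5015 genes were called (35.3%), against the CeA 5687 (40%), against the dlBNST 6074 (42.7%) and against the BLA 6090 (42.8%). Against the NAcSh 6798 were called (47.8%), against the NAcC 7076 (49.8%) and against the mPFC 9859 (69.3%). The correlation of the VTA means with the region means across genes, which are not independent replicates, ran from 0.904 for the mPFC to 0.978 for the vBNST.

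**Figure D1:**
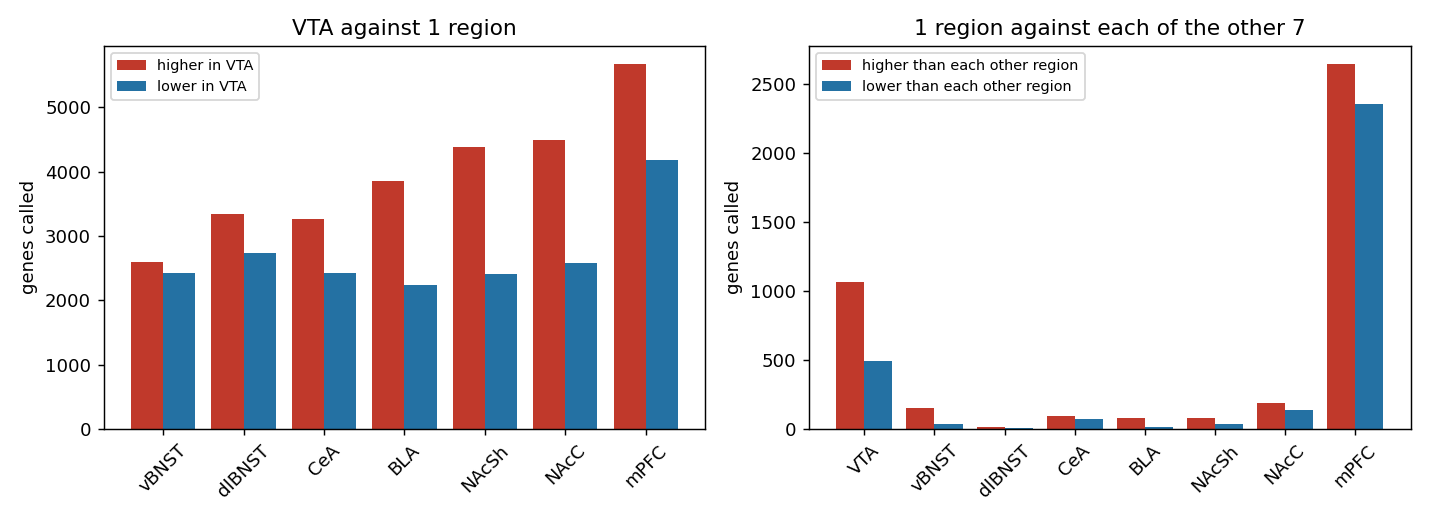
Genes called at an adjusted p under 0.05 in naive rats: left, the VTA against each single region; right, each region against every one of the other 7. The mPFC bars are the tallest on both sides, the vBNST has the smallest total on the left (5015), and on the right the VTA (1062 higher, 494 lower) follows the mPFC.

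The genes of dopamine synthesis and transport were among the leading higher genes, and the labelled tissue can be checked against them. Tyrosine hydroxylase (Th) read 7.88, 9.41, 9.33 and 10.35 in the 4 VTA arrays, and 2.88 to 4.27, with a median of 3.24, over the 28 forebrain arrays. The groups did not overlap, and the difference from the mean of the 7 regions was 5.94 (SE 0.20, adjusted p = 9.67e-22). The dopamine transporter (Slc6a3) read 9.66, 10.62, 10.39 and 11.02 against 2.76 to 3.30, with a median of 3.03, a difference of 7.39 (SE 0.12, adjusted p = 2.8e-30). The vesicular monoamine transporter (Slc18a2) read 10.09, 12.05, 10.14 and 12.08 against 2.72 to 4.67, with a median of 3.09, the highest forebrain mean being that of the vBNST (4.07). For each of these genes the lowest VTA array was at least 3 units above the highest forebrain array.

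Aromatic amino acid decarboxylase (Ddc) was 4.80 higher (SE 0.18, adjusted p = 1.49e-20), with vBNST the nearest region at a mean of 5.15. GTP cyclohydrolase (Gch1), which makes the cofactor of tyrosine hydroxylase, was 4.88 higher (SE 0.18). The retinaldehyde dehydrogenase Aldh1a1, found in a part of the dopamine neurons, read 11.64 to 12.68 in the VTA and 4.34 to 8.88 in the forebrain. Ret, the signaling receptor for glial cell line-derived neurotrophic factor, read 12.31 to 12.98 in the VTA. Its forebrain means were spread from 3.10 in the mPFC to 8.82 in the vBNST, so that the size of its difference depends strongly on the region compared.

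Of 22 dopamine neuron markers measured, 17 were higher in the VTA than the forebrain mean, 5 were not called and 0 were lower. Their median difference was 2.65, beside 0.06 over all genes tested, and 13 were at least 2-fold higher, where 5.67% of all genes were. Among the defining markers, Nr4a2, an orphan nuclear receptor of dopamine neurons, was 1.16 higher (SE 0.11, adjusted p = 1.27e-10). Pitx3, a homeodomain factor of the same neurons, gave no such reading: its VTA arrays read 1.92 to 2.16 and the forebrain arrays 1.86 to 2.24, both well under the array median. The D2 dopamine receptor (Drd2) read 4.70 to 5.51 in the VTA, lower than in NAcC (mean 6.98) and higher than in the mPFC (3.63), and the difference from the mean of the 7 regions, 0.30 (SE 0.17), did not pass the test. Ddc, Nr4a2, Pitx3 and Drd2 are given as defining markers and not by the rule that chose the other genes. En1, Lmx1a and Lmx1b were not analysed here.

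**Figure D2:**
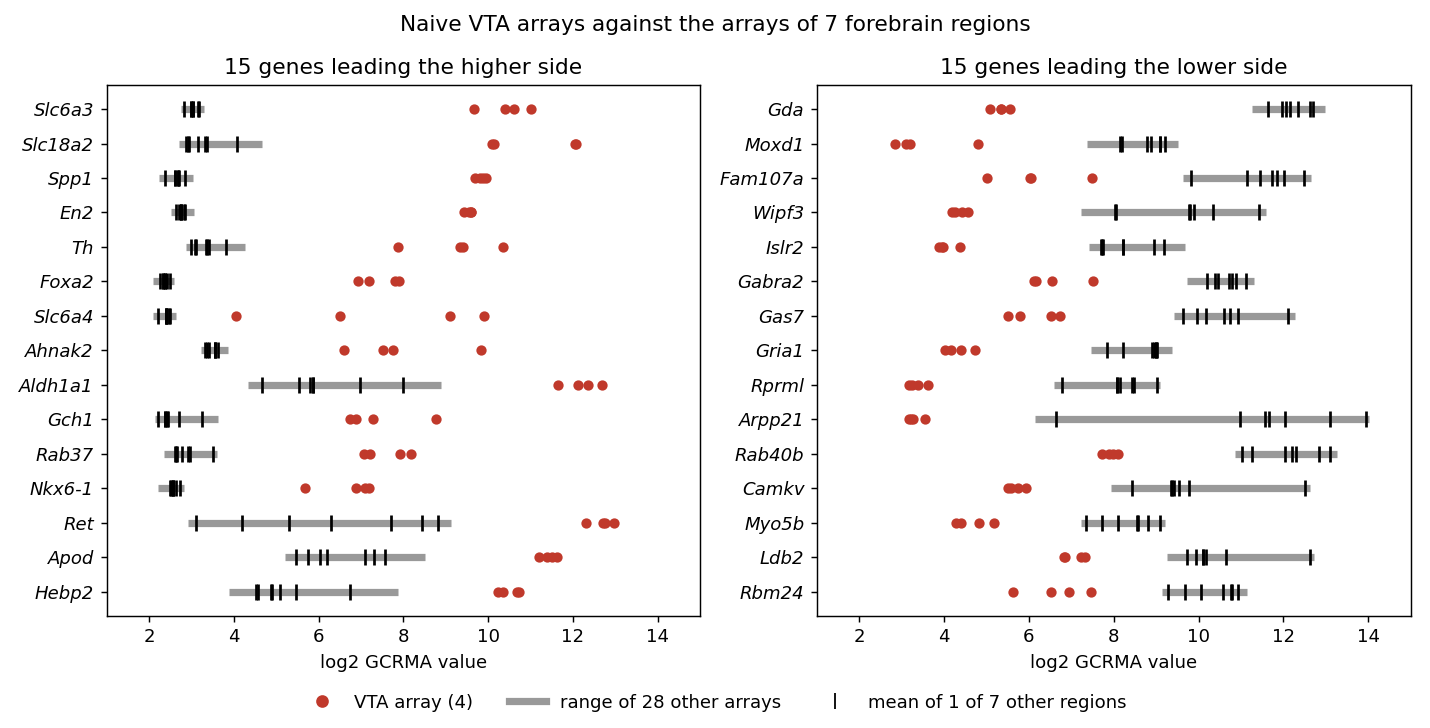
Log2 GCRMA values of the 15 genes leading each direction, ranked by the gap between the VTA mean and the nearest region mean; points are the 4 naive VTA arrays, grey bars the range of the 28 other naive arrays and ticks the 7 region means. No VTA point falls within a grey bar because the choice of these genes required it; the Slc6a4 points are spread from 4.06 to 9.90, while those of Spp1 and En2 lie close together.

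The promoters of the 3 genes that carry the dopamine readout are shown because these genes had forebrain medians near 3 and VTA means above 9. Each line holds the 250 bases before the annotated start from RefSeq on build GRCr8, written 5′ to 3′ on the gene's strand, and capitals mark the cAMP response element TGACGTCA, which reads the same on both strands.
Th, chr1:207508219-207508468, minus strand: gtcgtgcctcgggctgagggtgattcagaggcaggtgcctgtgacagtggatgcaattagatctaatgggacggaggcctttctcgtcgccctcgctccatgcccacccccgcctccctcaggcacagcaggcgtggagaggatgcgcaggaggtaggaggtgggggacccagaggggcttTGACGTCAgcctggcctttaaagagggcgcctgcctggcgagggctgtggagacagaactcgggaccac
Slc18a2, chr1:268399771-268400020, plus strand: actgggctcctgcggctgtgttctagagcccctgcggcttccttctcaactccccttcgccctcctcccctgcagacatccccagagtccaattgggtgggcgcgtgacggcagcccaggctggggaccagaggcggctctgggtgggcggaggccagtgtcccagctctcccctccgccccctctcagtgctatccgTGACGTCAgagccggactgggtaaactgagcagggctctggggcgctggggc
Slc6a3, chr1:31578963-31579212, minus strand: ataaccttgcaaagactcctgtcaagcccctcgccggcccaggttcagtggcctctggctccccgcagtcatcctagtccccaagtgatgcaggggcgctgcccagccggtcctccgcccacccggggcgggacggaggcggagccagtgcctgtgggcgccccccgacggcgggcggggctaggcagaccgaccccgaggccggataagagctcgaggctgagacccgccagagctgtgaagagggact

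The element begins 69 bases before the start of Th and 52 bases before that of Slc18a2, and these letters are not in the window of Slc6a3. Of 11734 genes with a window in the table, 310 (2.64%) hold it, and of 17 dopamine marker genes with a window 2 do, Th and Slc18a2. Searched on both strands, the NGFI-B response element AAAGGTCA was in 1 of the 17 windows (Ddc) and in 0.954% of all windows. The forkhead letters TGTTTAC (2.16% of all windows) and the bicoid-class letters TAATCC (4.99%) were in 0 of the 17. A match is a description of these letters only.

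Transcription factors separated the tissues in opposite directions. Of 29 midbrain and brainstem factors measured, 20 were higher in the VTA (69%, where 31.2% of all genes were). Of the others 9 were not called and 0 were lower, and 15 were higher than in each of the 7 regions (7.47% of all genes). Many of these differences were small and at low values. The list median was 0.41, 10 factors were at least 2-fold higher, and 16 of the 29 had means of 4 or less in all 8 regions. Engrailed 2 (En2), a homeodomain factor of the midbrain and hindbrain border, read 9.59, 9.59, 9.54 and 9.43 in the VTA and 2.52 to 3.07 in the forebrain, a difference of 6.78 (SE 0.08, adjusted p = 1.16e-34). Foxa2, a forkhead factor of the floor plate and of dopamine neurons, read 7.20, 6.93, 7.90 and 7.81 against 2.09 to 2.60. All their forebrain values lay under every array median.

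Nkx6-1, a homeodomain factor of the ventral neural tube, was 4.13 higher (SE 0.14) and the Iroquois factor Irx3 3.92 higher (SE 0.19), with VTA arrays from 5.95 to 8.41. Otx2, which marks fore- and midbrain, was 2.73 higher (SE 0.20), but its VTA range of 6.06 to 7.04 overlapped the forebrain range, where the dlBNST mean was 5.35 and the NAcSh mean 4.97.

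Of 29 telencephalic factors, 17 were lower in the VTA (58.6%) and 1 was higher (3.45%), beside 22.4% and 31.2% of all genes. Of the others 11 were not called, and 8 were lower than in each of the 7 regions (3.47% of all genes). Lhx2, a LIM homeodomain factor of the developing cortex, read 2.39 to 3.15 in the VTA and 3.98 to 9.14 in the forebrain, with the vBNST (mean 4.22) closest to the VTA. Bcl11b, a zinc finger factor of striatal and corticospinal neurons, was 4.33 lower (SE 0.15), Meis2 4.13 lower (SE 0.18) and Bcl11a 3.84 lower (SE 0.18). Dlx1, a factor of forebrain GABA neurons, was 2.54 lower (SE 0.21), its forebrain means running from 5.21 in the CeA to 9.76 in the vBNST.

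**Figure D3:**
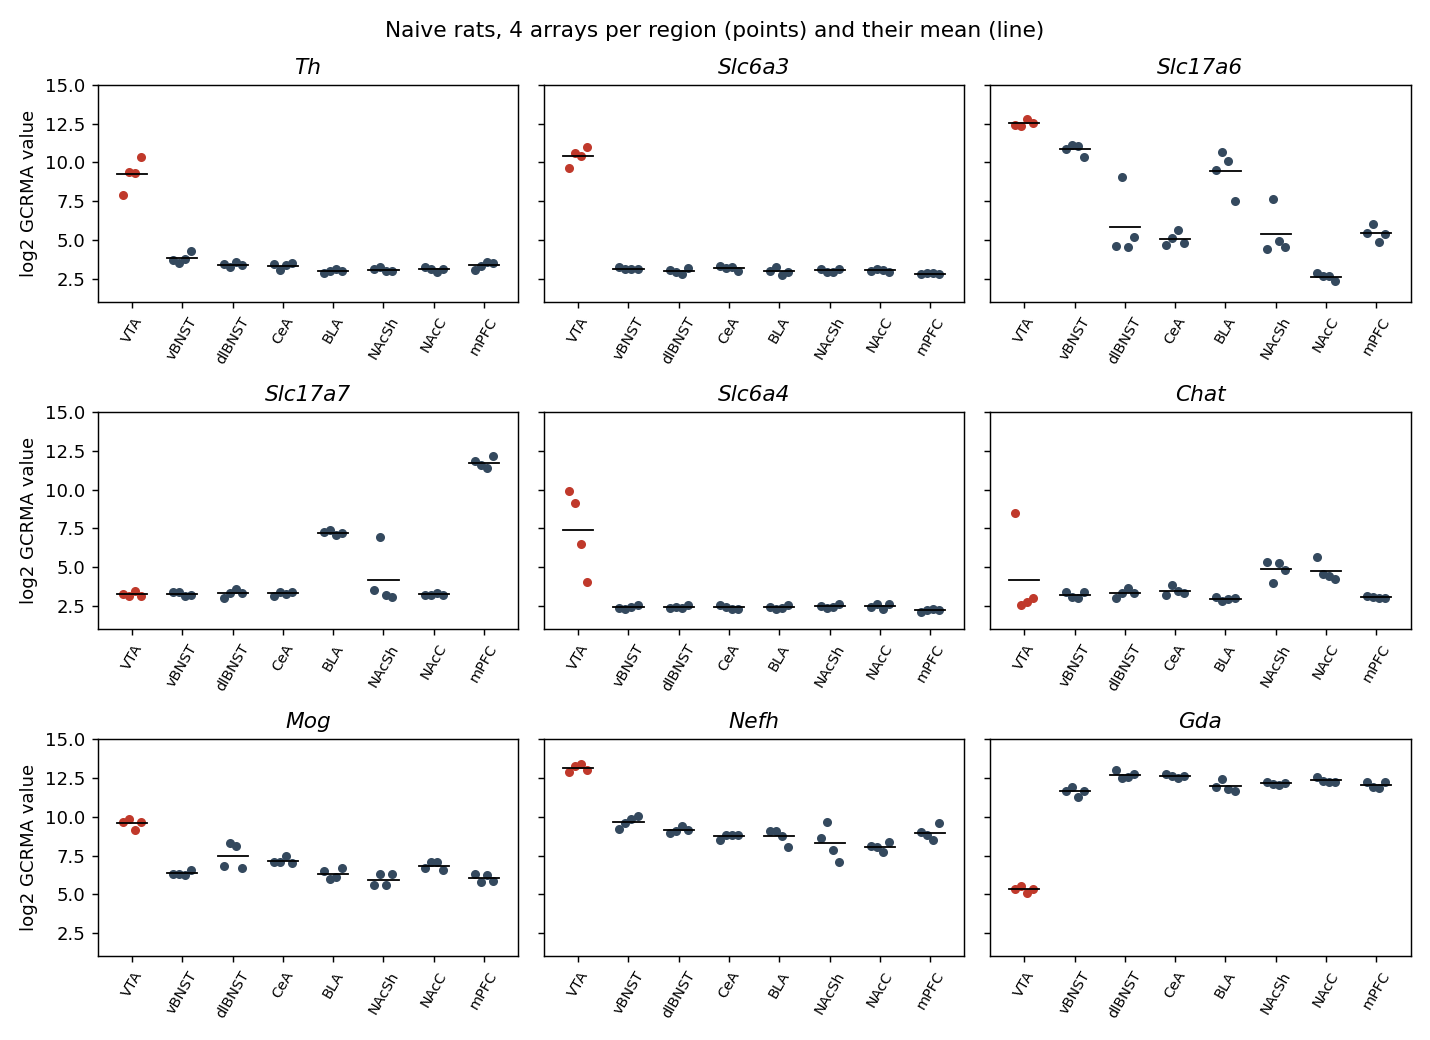
Log2 GCRMA values of 9 genes in the 8 regions of naive rats, with 4 arrays per region as points and their mean as a line; VTA points are red. Th and Slc6a3 are high in the VTA and near 3 elsewhere, Slc17a6 is shared with the vBNST and BLA, Slc17a7 is high in the mPFC, Chat is high in 1 VTA array and Gda is low in the VTA.

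The vesicular glutamate transporters, which load glutamate into synaptic vesicles, divided the regions. Slc17a6 (VGLUT2), the form of the thalamus and brainstem, read 12.43, 12.35, 12.82 and 12.54 in the VTA. Its forebrain means ran from 2.64 in the NAcC to 10.87 in the vBNST, that of the BLA being 9.43. The 4 VTA arrays lay above all 28 others and the difference was 6.15 (SE 0.52, adjusted p = 1.31e-11), yet that from the vBNST alone did not pass the test (adjusted p = 0.0571). Slc17a7 (VGLUT1), the cortical form, read 3.15 to 3.45 in the VTA, like the NAcC, CeA, dlBNST and vBNST means of 3.25 to 3.31, and far under the mPFC (11.75) and BLA (7.22).

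Of 7 genes of GABA synthesis and transport, 2 were higher (28.6%) and 3 lower (42.9%), beside 31.2% and 22.4% of all genes. Gad1, the larger glutamate decarboxylase, read 13.16 to 13.47 in the VTA and was 0.37 lower than the forebrain mean (SE 0.06, adjusted p = 3.1e-06), but higher than in the mPFC (mean 13.10, adjusted p = 0.0126), the other region means being 13.52 to 13.86. Gad2, the smaller form, was 2.08 lower (SE 0.23), with the mPFC mean (4.46) under the VTA mean (5.22). The vesicular GABA transporter Slc32a1 was 0.89 lower (SE 0.19). It was lower than in the NAcC, CeA, dlBNST and vBNST (means of 10.02 to 10.81), while its differences from the NAcSh (9.28), mPFC (8.96) and BLA (8.58) did not pass the test.

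Glutamate receptors were mostly lower than the forebrain mean. Of 24 genes, ionotropic and metabotropic, 16 were lower in the VTA (66.7%, where 22.4% of all genes were). Of the others 2 were higher and 6 were not called. Lower than in each of the 7 regions were 5 (3.47% of all genes). The list median was -0.65 against the mPFC and -0.31 to -0.12 against the other regions. Grin1 differed by -4.78 from the mPFC and by -0.60 to -0.14 from the others. The AMPA receptor subunit Gria1 read 4.74, 4.40, 4.17 and 4.03 in the VTA and 7.47 to 9.38 in the forebrain, a difference of -4.37 (SE 0.16, adjusted p = 9.92e-21). Its partner subunit Gria2 fell less, by 1.46 (SE 0.05), from a forebrain range of 12.71 to 13.30. The VTA was below all 28 arrays for both. The kainate subunit Grik2 was 1.76 lower (SE 0.14) and the NMDA subunit Grin2b 1.58 lower (SE 0.17). For the metabotropic receptor Grm5 the difference of -1.80 (SE 0.73, adjusted p = 0.0388) was lost whenever any 1 VTA array was left out.

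Of 24 GABA and glycine receptor genes, with their transporters and scaffold, 7 were higher (29.2%) and 9 lower (37.5%), beside 31.2% and 22.4% of all genes. The GABA-A subunit Gabra2 read 7.52, 6.17, 6.55 and 6.11 in the VTA against 9.74 to 11.30 and was 4.06 lower (SE 0.15, adjusted p = 2.52e-20). Gabra5 was 1.77 lower (SE 0.14) and Gabrb1 1.43 lower (SE 0.10), the VTA arrays again lying below all others. Among the higher genes the glycine transporter Slc6a9 differed by 1.14 (SE 0.14) and the glycine receptor subunit Glra1 by 0.93 (SE 0.11), with VTA arrays of 3.75 to 4.73. The glycine receptor subunit Glrb was also higher than in each of the 7 regions, by 0.28 (mPFC) to 1.38 (NAcC). The scaffold Gphn was lower than in each, by 0.48 (BLA) to 0.81 (CeA). Glra2 was higher than in the NAcC and mPFC and lower than in the CeA, BLA, dlBNST and vBNST. Glra3 was higher than in the NAcC, mPFC, CeA and dlBNST, and the glycine transporter Slc6a5 differed from no single region by the test.

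Of 29 monoamine receptors, 20 were not called, 4 were higher (13.8%) and 5 lower (17.2%), beside 31.2% and 22.4% of all genes. The D1 dopamine receptor (Drd1), carried by the direct pathway neurons of the striatum, read 2.07 to 2.51 in the VTA and 3.70 to 11.64 in the forebrain. It was highest in NAcC (11.46) and NAcSh (10.61), and the VTA lay below all 28 arrays. Of 16 nicotinic receptor subunits, 6 were higher (37.5%, near the 31.2% of all genes) and 0 lower, and 14 had means of 4 or less in all 8 regions. Chrna3 was 1.39 higher (SE 0.14), and Chrna5 1.77 higher (SE 0.34) with VTA arrays of 3.30, 4.86, 6.73 and 2.92, so that its 4 arrays spread more widely than the difference. Its mPFC mean of 4.02 did not differ from the VTA mean of 4.45 by the test, and the other region means were 2.31 to 2.72.

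**Figure D4:**
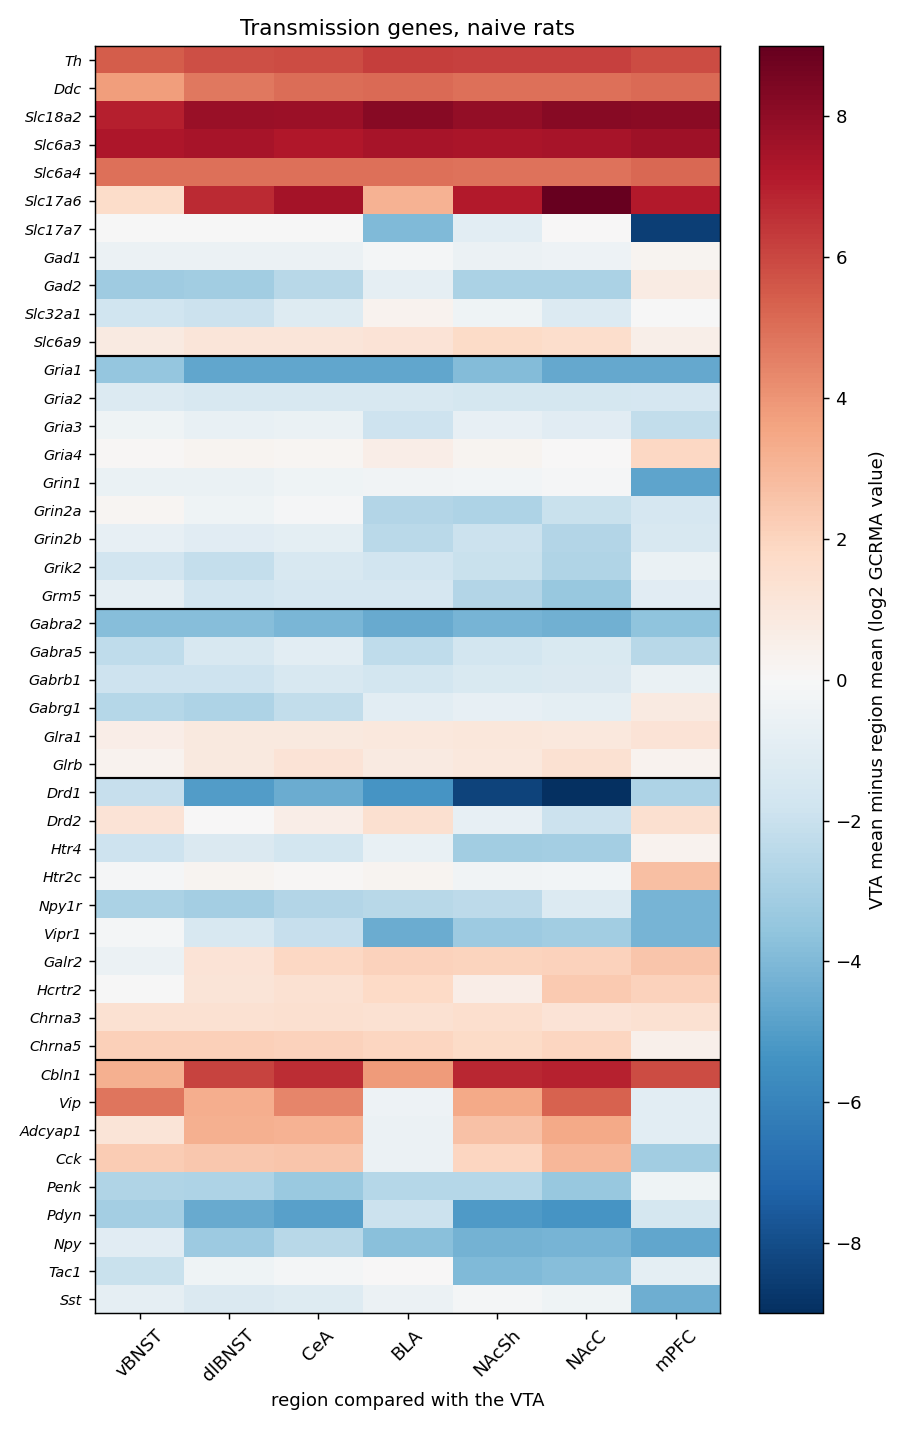
VTA mean minus the mean of each forebrain region (columns) in log2 GCRMA values for transmission genes (rows), grouped by role and chosen as illustrations; red is higher in the VTA and blue lower. Th, Ddc, Slc18a2 and Slc6a3 are red in every column, Gria1 and Gabra2 are blue in every column, and Slc17a6 is palest against the vBNST.

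Among 37 neuropeptides, 8 were higher (21.6%), 13 lower (35.1%) and 16 not called, beside 31.2% and 22.4% of all genes. Cerebellin 1 (Cbln1), a secreted synapse organiser, read 9.27 to 10.07 in the VTA, above all forebrain arrays, and was 5.62 higher (SE 0.29, adjusted p = 1.16e-16). Vasoactive intestinal peptide (Vip) was 2.83 higher (SE 0.54), though mPFC (9.36) and BLA (8.82) means exceeded the VTA mean of 8.38. Among the lower peptides were the opioid precursors Pdyn, by 3.77 (SE 0.19), and Penk, by 2.55 (SE 0.10), the latter with an mPFC mean of 10.43 near the VTA mean of 10.02. Neuropeptide Y (Npy) read 5.0 to 5.84 against 6.02 to 10.45, and its receptor Npy1r was 2.68 lower (SE 0.31). Of 37 neuropeptide and opioid receptor genes, 5 were higher (13.5%), 9 lower (24.3%) and 23 not called. Galr2 (1.59, SE 0.17) and Hcrtr2 (1.34, SE 0.16) were among the higher, with vBNST means of 6.42 and 5.0 beside VTA means of 5.88 and 4.99.

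Genes of striatal projection neurons were low in the VTA. Of 24 medium spiny neuron markers, 21 were lower (87.5%), 2 higher (8.33%) and 1 not called, beside 22.4% lower and 31.2% higher of all genes. The list median was -1.59 beside 0.06 over all genes. Arpp21, a cAMP-regulated phosphoprotein, had the largest difference of the leading genes, -8.12 (SE 0.14, adjusted p = 2.56e-29). It read 3.17 to 3.55 in the VTA, 6.64 on average in the vBNST and 13.94 in the NAcC. Ppp1r1b (DARPP-32) was 3.41 lower (SE 0.25) but its difference from the vBNST did not pass the test (means of 3.95 and 4.02). Scn4b, a sodium channel beta subunit that large fast-firing neurons also carry, was 3.26 higher (SE 0.20), the NAcC mean (12.60) alone exceeding the VTA mean of 11.47 by the test.

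Of 25 cortical glutamatergic neuron markers, 15 were lower (60%) and 3 higher (12%), beside 22.4% and 31.2% of all genes. Itpka, an inositol trisphosphate kinase of dendritic spines, was 4.74 lower (SE 0.21). Without the mPFC, 7 rather than 10 of the 25 markers were at least 2-fold lower. By region, the list median was -2.12 against the mPFC, -1.88 against the BLA and -0.41 against the NAcSh. Against the NAcC, CeA, dlBNST and vBNST it was between -0.06 and 0.09. Of 25 calcium and calmodulin signaling genes of the forebrain, 19 were lower (76%) and 2 higher (8%). Camk2a, the kinase of excitatory synapses, read 3.32 to 4.32 against 4.29 to 9.18, and Camkv, a related pseudokinase, 5.51 to 5.92 against 7.94 to 12.64.

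Among the leading lower genes, Gda, guanine deaminase, had the widest gap to the nearest region, 6.31. It read 5.33, 5.56, 5.09 and 5.33 in the VTA against 11.27 to 12.99, with region means of 11.64 to 12.70. Moxd1, a monooxygenase related to dopamine beta-hydroxylase, read 3.20, 2.84, 4.80 and 3.11 against 7.37 to 9.51. The other leading lower genes were Fam107a, Wipf3, Islr2, Gas7, Rprml, Rab40b, Myo5b, Ldb2 and Rbm24, with differences from -5.36 to -3.42. For 12 of the 15 leading lower genes the nearest region was the vBNST. Over all genes the vBNST also had the smallest median absolute difference from the VTA (0.223). The share of all genes with the vBNST nearest was not counted, so the 12 are no trait of these genes. Among the leading higher genes outside the dopamine and factor lists, Ahnak2 read 9.82, 7.75, 7.53 and 6.61 against 3.22 to 3.86, the small GTPase Rab37 was 4.73 higher (SE 0.12), the lipocalin Apod 4.94 higher (SE 0.25) and the heme-binding protein Hebp2 5.33 higher (SE 0.25). Some genes had probe sets that differed in size or sign: the second probe set of Slc6a3 differed by 0.62, and of the 4 probe sets of Rbm24 1 was called higher and 1 lower.

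Activity-linked genes were mostly lower than the forebrain mean, but not evenly across regions. Of 16 immediate early genes, 9 were lower (56.2%, where 22.4% of all genes were), 1 higher and 6 not called. Lower than in each of the 7 regions were 4 (3.47% of all genes). The list median was -1.66 against the mPFC, and -0.44 to -0.32 against the NAcC, NAcSh, CeA and BLA. Against the dlBNST it was -0.09 and against the vBNST 0.01. Egr1 read 7.81, 7.97, 7.56 and 6.42 in the VTA against 9.92 to 12.54 and was 4.08 lower (SE 0.14, adjusted p = 3.81e-21). Homer1, a scaffold of glutamate synapses, was 2.73 lower (SE 0.16) and Fosb 2.78 lower (SE 0.24), while Fos, named after its values were seen, had a difference of 0.05 (SE 0.31) that did not pass the test. Of 20 voltage-gated calcium channel genes, 10 were lower (50%, where 22.4% of all genes were) and 0 higher. Cacna2d1 was 2.07 lower (SE 0.14) and Cacna1d, the pore of a low-threshold L-type channel, 1.63 lower (SE 0.15) from VTA values of 2.78 to 3.78.

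Potassium channels went in both directions. Of 53 genes, 13 were higher (24.5%), 17 lower (32.1%) and 23 not called, beside 31.2% and 22.4% of all genes. Kcns3, a modulatory subunit, read 8.64 to 9.09 in the VTA and 2.96 to 7.50 in the forebrain, with the mPFC nearest (6.96). Kcnj16, an inward rectifier, was 2.84 higher (SE 0.30), but its difference from the vBNST alone, 0.36, did not pass the test. Kcnq5 was 3.26 lower (SE 0.13) and the A-type channel subunit Kcna4 2.57 lower (SE 0.12), both below all 28 arrays.

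Of 18 neurofilament and large axon genes, 10 were higher (55.6%) and 2 lower (11.1%), beside 31.2% and 22.4% of all genes. Of 22 fast firing and fast release genes 12 were higher (54.5%) and 6 lower (27.3%). Both lists were level with the mPFC, with medians of -0.03 and -0.01. Against the other regions the medians were 0.33 to 1.39 and 0.39 to 0.81. The heavy neurofilament Nefh read 12.90, 13.26, 13.38 and 13.03 against 7.10 to 10.08, a difference of 4.33 (SE 0.24, adjusted p = 6.26e-16). Nefm was 2.90 higher (SE 0.18) and Prph, peripherin, 3.16 higher (SE 0.13). Osteopontin (Spp1), a secreted protein of large projection neurons and of glia, read 9.81, 9.68, 9.95 and 9.89 in the VTA and 2.24 to 3.03 in the forebrain. Scn1a, the sodium channel of fast-firing neurons, was 2.10 higher (SE 0.14) and the vesicle protein Vamp1 1.88 higher (SE 0.13), while Cplx2, a release regulator named after its values were seen, was 1.74 lower (SE 0.14).

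Oligodendrocyte genes were higher as a group. Of 32 oligodendrocyte and myelin genes, 31 were higher (96.9%, where 31.2% of all genes were), 0 lower and 1 not called. At least 2-fold higher were 25 (78.1%, where 5.67% of all genes were), and the median was 1.57 beside 0.06 over all genes. Their summed log2 value was 273.9 to 287.4 in the VTA arrays and 212.9 to 247.7 in the 28 others, which do not overlap. Mog, a surface protein of myelin, read 9.64, 9.86, 9.16 and 9.63 against 5.57 to 8.34, and was 2.98 higher (SE 0.20). Aspa, the aspartoacylase of oligodendrocytes, was 3.03 higher (SE 0.18) and Ugt8, which makes galactocerebroside, 3.24 higher (SE 0.31) with a VTA range of 4.94 to 8.64. Mbp, myelin basic protein and a defining marker, was 1.49 higher than the mean (SE 0.18), although the mPFC mean (12.68) was level with that of the VTA (12.64).

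Calls of other glia and vessel genes went in both directions or only higher, and stand beside 31.2% higher and 22.4% lower of all genes. Of 26 astrocyte markers, 7 were higher (26.9%), 8 lower (30.8%) and 11 not called. Their summed value of 239.1 to 244.1 lay within the forebrain range of 225.7 to 274.6. Agt, angiotensinogen, was 1.79 higher (SE 0.24) with a vBNST mean (10.09) above that of the VTA (9.75), and Gfap was 1.31 higher (SE 0.26) with an mPFC mean of 11.06 above the VTA mean of 9.70. Of 16 microglia markers, 3 were higher (18.8%) and 2 lower (12.5%), with a summed value of 90.9 to 97.7 against 84.3 to 96.1. Of 16 endothelial and mural markers 5 were higher (31.2%, the share of all genes) and 0 lower, with 89.6 to 93.8 against 78.9 to 102.9. Of 9 choroid plexus and ependyma genes, 3 were higher (33.3%) and 2 lower (22.2%), with summed values of 40.6 to 41.9 against 35.2 to 48.7. Of 9 oligodendrocyte precursor markers, 4 were higher (44.4%) and 2 lower (22.2%). Both blood cell genes measured, Hbb (0.52, SE 0.15) and Alas2 (0.29, SE 0.09), were higher than the forebrain mean. Hbb was lower than in the mPFC (-0.58, adjusted p = 0.0129) and lost its call when region means were taken as samples. Alas2 was higher by the test than in the CeA, BLA and dlBNST only. Of 28 synaptic adhesion and ephrin genes, 7 were higher (25%) and 13 lower (46.4%), with the ephrin Efnb3 2.44 lower (SE 0.20). The part of oligodendrocyte or other glial RNA in the neuronal differences was not tested.

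**Figure D5:**
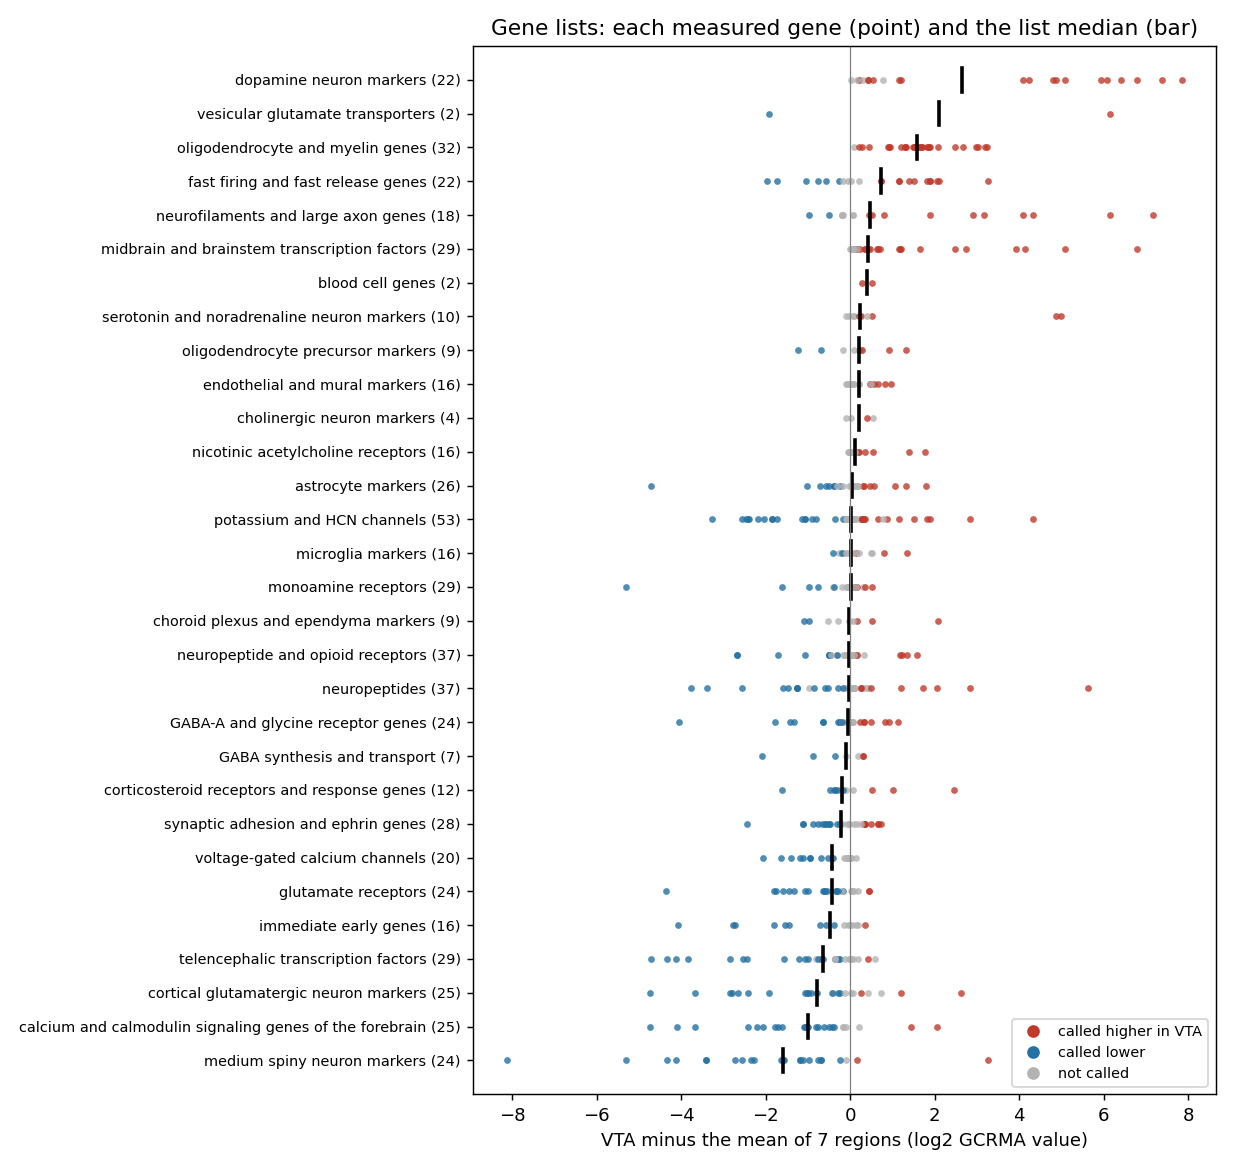
Difference between the naive VTA and the mean of 7 forebrain regions for every measured gene of 30 lists (points, colored by the test) and the median of each list (bar), with the number of genes measured in parentheses. Dopamine neuron markers (median 2.65) and oligodendrocyte genes (1.57) stand at the higher end among lists of more than 2 genes, and medium spiny neuron markers (-1.59) at the lower end.

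Stress hormone genes were mixed. Of 12 corticosteroid receptors and response genes, 3 were higher (25%) and 6 lower (50%), beside 31.2% and 22.4% of all genes. Fkbp5, a chaperone of the glucocorticoid receptor, read 5.83 to 6.28 against 6.62 to 9.11 and was 1.62 lower (SE 0.13, adjusted p = 1.06e-11), below each of the 7 regions. Pdk4, a pyruvate dehydrogenase kinase, was 2.46 higher (SE 0.24). The glucocorticoid receptor itself (Nr3c1) read 10.47 to 10.81 and was 0.17 lower (SE 0.07, adjusted p = 0.0447), and the mineralocorticoid receptor (Nr3c2) 0.32 lower (SE 0.11, adjusted p = 0.0145). Single regions differed in direction. Nr3c1 was lower than in the NAcSh, CeA and dlBNST (means of 10.99 to 11.21) and higher than in the mPFC (10.11, adjusted p = 3.12e-06). Nr3c2, with a VTA mean of 9.02, was lower than in the NAcC, NAcSh, CeA and dlBNST (9.45 to 10.37), higher than in the mPFC (7.87, adjusted p = 1.99e-08) and vBNST (8.47, adjusted p = 0.00282), and level with the BLA (9.03). Nr3c1 lost its call without VTA array 1 (-0.10) or 4 (-0.16) and without any of 11 single forebrain arrays, and Nr3c2 without VTA array 2 (-0.28) or 4 (-0.29).

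Markers of neurons beside the dopamine cells varied between the VTA arrays. The serotonin transporter (Slc6a4), the marker of raphe serotonin neurons, read 9.90, 9.11, 6.51 and 4.06 in the 4 VTA arrays, all above the forebrain range of 2.09 to 2.64. It was 4.99 higher (SE 0.45, adjusted p = 5.3e-11), with a 4-array SD of 2.65 that was the widest of the leading genes. Fev, a transcription factor of the same neurons, read 2.86 to 3.09 (0.26 higher, SE 0.05), and Tph2 was not analysed here. Of 10 serotonin and noradrenaline neuron markers, 5 were higher (50%, where 31.2% of all genes were) and 0 lower. Of 4 cholinergic markers 1 was higher (25%) and 0 lower. Choline acetyltransferase (Chat), of cholinergic neurons, read 8.52 in VTA array 1 and 2.57, 2.73 and 2.99 in the others, and its difference of 0.54 (SE 0.51) did not pass the test. Calcb, Chodl and Kcnj14, chosen with Chat after their values were seen, were also more than 2 units higher in VTA array 1 than in the other naive VTA arrays, as were Ahnak2 and Slc5a7. The naive VTA array with the highest Slc6a4 and Chat had the lowest Th, 7.88, and that with the lowest Slc6a4 had the highest, 10.35. This order was not kept in the alcohol groups. Nondependent VTA array 4 had the highest Slc6a4 (9.04) and the highest Th (10.92) of its group. Dependent VTA array 3 had the lowest Slc6a4 (5.15) and the lowest Th (9.29).

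The same comparison was made in the other rats, whose arrays were not used above. Before these results, 4 arrays stood apart there, with no correlation of 0.98 or more to any other array: CeA 2 (0.345), VTA 2 (0.931) and BLA 3 (0.954) of the nondependent group and vBNST 1 (0.961) of the dependent group. Of the 1062 genes higher in the naive VTA than in each region, 744 were called higher than the forebrain mean in nondependent rats, where 15.2% of all genes were called higher. Of the 494 lower genes 350 were called again (9.76% of all genes). Without the 3 arrays that stood apart, the counts were 1045 (30.9% of all genes) and 489 (20% of all genes). The rule that chose the genes, a call against each of the 7 regions, was met again by 325 of the higher (2.78% of all genes) and 98 of the lower (0.893%), or by 817 (8.31%) and 379 (4.04%) without those arrays.

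In dependent rats 1003 of the higher genes were called again (25.2% of all genes) and 465 of the lower (15.7% of all genes), or 1019 (28.9%) and 482 (18.3%) without the array that stood apart. The call against each region was met again by 581 (5.18% of all genes) and 261 (2.32%), or by 639 (5.81%) and 314 (2.75%) without that array. Against the forebrain mean, none of the 1062 or 494 genes was called in the opposite direction in either group. Slc6a3 differed by 7.46 in nondependent and 7.37 in dependent rats, and Th by 6.53 and 6.44. En2 differed by 6.88 and 7.08.

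Spp1, Kcns3 and Nefh varied between VTA arrays of the other rats, and were chosen for that. Spp1, at 9.68 to 9.95 in naive rats, read 4.55, 3.33, 10.83 and 7.56 in the 4 dependent VTA arrays and 10.39, 7.82, 10.83 and 9.83 in the nondependent, the array at 7.82 being the one that stood apart. Kcns3 read 6.04, 5.70, 9.61 and 7.75 and Nefh 10.85, 10.58, 13.55 and 11.83 in the same dependent arrays, with arrays 1 and 2 lowest and array 3 highest for all 3 genes. Th in these arrays was 9.46, 10.19, 9.29 and 9.80, which does not follow that order. Slc6a4 ranged from 3.59 to 9.90 over the 12 VTA arrays of all groups.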

How the data were processed

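Per the labels' processing notes, the authors normalised the Affymetrix arrays with GCRMA 2.36.0 under R 3.03; the deposited values are log2 expression values per probe set, from 0.95 to 14.84. The methods also name a later cleaning step, which was not applied to the values used here. Of 31099 probe sets, 20832 name 1 gene, 436 several and 9831 none; each of 14218 genes was represented by its brightest probe set, by the mean of the 96 arrays. The 32 naive arrays were fitted with limma 3.58.1 (R 4.3.3) with region as a factor and an intensity trend, without a filter on level. Contrasts were the VTA minus the unweighted mean of the other 7 regions and minus each region, with Benjamini-Hochberg adjustment over all genes at 0.05. Up to 15 genes per direction that lay beyond all 28 other arrays, ranked by the gap to the nearest region mean, and up to 6 called genes of each of 30 lists, by size of difference with a mean over 4 in at least 1 region, were described, with Nr3c1, Nr3c2, up to 2 genes per list that were not called and others said to be chosen otherwise. The comparison, its members and the lists were chosen with earlier results of these data known. The fit was tested on simulated data. The number of arrays limits the precision, and p-values measure only the spread between arrays.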

Additional observations from a re-analysis of the deposited data

Results flagged for a closer look

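In 109 described genes the 4 naive VTA arrays were searched for a single array far from the other 3, by Dixon's test at its 95% critical value. Chance gives about 1 such array in 20 groups, and 6 genes had one, 5 of them in array 1. Chat read 8.52 in array 1 and 2.57 to 2.99 in the others. Chodl read 8.51 and 2.99 to 3.34, Calcb 5.65 and 2.84 to 3.11, and Kcnj14 7.45 and 4.99 to 5.26. These genes and Chat were picked because array 1 stood out, so that the rate of 1 in 20 is no measure for them. Nr3c2 read 9.27 in array 1 and 8.92 to 8.95 in the others. Dlx1 read 3.58 in array 3 and 4.03 to 4.09 in the others.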

How the results depend on the processing

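Counts against the mean of the 7 regions depended on the spread used as error: 1962 higher and 854 lower with region means as samples, 2504 and 1148 with the 28 arrays pooled, and 2525 and 1155 with an ordinary pooled-variance statistic (69.7%, 68.6% and 68.6% of calls higher, beside 58.2%). With genes of mean above 4, 2930 were higher. With a mean above 6, fewer genes were tested (5817), and 2055 were higher, 1784 lower and 519 higher than each region. Against single regions that filter left 3856 (NAcC), 3693 (NAcSh), 4562 (mPFC), 3319 (CeA), 3487 (BLA), 3219 (dlBNST) and 2917 (vBNST). Without the mPFC in the mean the sign turned for Apoe (-0.72 to 0.22), Ddit4 (-0.48 to 0.04) and Htr2c (0.36 to -0.03), and with the mean of probe sets for Fyn (0.22 to -0.42); the cause was not tested.

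Leaving out each array gave 3888 to 4500 higher and 2837 to 3241 lower genes, and 961 to 1087 and 460 to 504 against each region. Genes called again numbered 652 to 986 and 303 to 478 in nondependent rats, and 948 to 1019 and 456 to 482 in dependent rats. Grm5 and Tek lost their call without any 1 VTA array. Same-numbered arrays of different regions had a median correlation of deviations of 0.017 (-0.274 to 0.447, over 0.1 in 35 of 112 pairs), against -0.037 for different numbers (over 0.1 in 70 of 336). For the VTA with another region it was -0.044 (over 0.1 in 2 of 28). The labels do not say that a number marks an animal, and these correlations do not settle it. The numbers were therefore not taken as pairs, and the main fit has no term for animals shared between regions. With the replicate number as a block, 4473 genes were higher and 3214 lower, and 1077 and 507 against each region. No call of the 156 genes chosen by rule changed with the block, and the genes chosen otherwise were not checked there. The other settings left every count within 1.5 times its value.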

Other observations

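Spread between the 4 naive arrays differed by region: 75 genes had an SD over 1 in the VTA, 128 in the NAcSh, 33 in the NAcC, 28 in the mPFC, 23 each in the BLA and dlBNST, 18 in the CeA and 14 in the vBNST. In VTA array 1 the choline transporter Slc5a7 read 11.70, against 4.75 to 6.60 in the other naive VTA arrays. Over the 8 VTA arrays of the alcohol groups Chat read 2.90 to 3.70.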
